A study of Mus musculus with 9 samples.

Results

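Fatty acid oxidation genes and genes of the peroxisome proliferator-activated receptors (PPARs) were followed in primary mouse microglia before and after they were fed apoptotic cells. The group comprised 9 genes: Cpt1a, Acadl, Acadm and Acox2, which act in fatty acid oxidation, the receptors Pparg and Ppard, and Ucp2, Fabp5 and Plin2, which handle or are controlled by fatty acids. They were taken by gene name from the probes of the arrays, where all 9 of 9 were found among 34623 gene names, on 10 probes. All 9 passed the filter on dim probes, which asked for 1 array well above background, and were among the 24102 genes tested.

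RNA was measured on 9 single-color arrays in 3 groups of 3. Control microglia were naive cells that received no apoptotic cells. Ph3h and Ph24h microglia were fed for 3 h and 24 h with SH-SY5Y, a human neuroblastoma line, whose cells had been labeled with the membrane dye CM-DiI and driven into apoptosis with staurosporine (3 µM, 4 h), at about 1 floating dead cell per microglial cell. All groups were grown with granulocyte-macrophage colony stimulating factor from brains of fms-EGFP pups at postnatal day 0 to 1, in which the fms promoter drives the EGFP reporter, without olfactory bulb and cerebellum. Each culture pooled several pups, and per the methods the 3 samples of a group came from independent experiments. No unfed culture was measured at 3 h or 24 h, so feeding and time since the control sample cannot be told apart. The control group is 0 h on the time scale.

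Fatty acids are activated to acyl-CoA and carried into mitochondria by the carnitine shuttle, of which Cpt1a is the outer membrane enzyme, and are then shortened in cycles that begin with acyl-CoA dehydrogenases such as Acadl (long chains) and Acadm (medium chains). Very long and branched chains are first shortened in peroxisomes, where acyl-CoA oxidases such as Acox2 begin the cycle. PPARs are nuclear receptors that bind fatty acids and their derivatives and, as dimers with retinoid X receptors, control many genes of lipid uptake, storage and oxidation.

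Levels are given as log2 of the background-subtracted intensity minus the 75th percentile of the same array, so a difference of 1 is a doubling relative to the other probes of that array. The percentile itself was 356 to 473 intensity units on control arrays, 185 to 211 on those of Ph3h and 156 to 161 on those of Ph24h, and 25623 to 29288 probes were well above background. Before scaling, 8 of the 9 genes were dimmer on all 3 Ph3h and all 3 Ph24h arrays than on any control array, and the ninth, Ppard, was brighter. The share of all genes that were dimmer in this way was not counted. The arrays as a whole were dimmer, as their percentiles show, so this count cannot be read as a result about the 9 genes. The spike-in RNAs that were added before labeling fell by 0.09 in Ph3h and by 0.44 in Ph24h, in log2 units, whereas the 75th percentile fell by 1.05 and fell by 1.38. Per the methods, a set amount of total RNA was labeled and a set amount of its product hybridized. In these bulk samples, fewer cells of a type and less RNA of a gene per cell cannot be told apart. Most markers of the SH-SY5Y cells rose in both fed groups. The summed scaled intensity of the 12 measured markers was 0.882 to 0.964 on control arrays, 1430 to 1560 on Ph3h arrays and 2200 to 2550 on Ph24h arrays. Vgf, the precursor of secreted neuropeptides, which other cells can also express, carried most of this sum, and the other 11 markers summed to 0.721 to 0.808, 116 to 130 and 161 to 173. Of these, Hand2, Chga and Isl1, among others, were not well above background on any control array. Th and Chgb were well above background on every control array, and Th rose while Chgb was not called at either time (0.17 and 0.11). Of the 12 markers, 9 were called higher and 1 lower at 3 h, beside 27.9% and 26.0% of all genes. At 24 h, 9 were called higher and 0 lower, beside 29.9% and 33.2%. The 6 measured neuronal markers summed to 4.02 to 4.64, 23.9 to 29.6 and 24.2 to 24.9 in the same order, and the 7 measured markers of oligodendrocyte lineage to 262 to 323, 417 to 475 and 208 to 242. The summed level of 9 measured microglial markers, all 9 well above background on every control array, was 979 to 1030, 1380 to 1530 and 823 to 846, and at 24 h P2ry12 was no longer well above background on any array. How much RNA of the fed cells bound the probes described here was not tested. The paper itself reports that most array probes had low homology to human transcripts. It also reports degraded RNA in SH-SY5Y cells treated with staurosporine for 24 h, longer than the 4 h used before feeding. In apoptotic cells after 4 h of treatment it reports no sign of new transcription.

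Differences were tested with limma over all genes, and a gene was called at an adjusted p under 0.05. At 3 h, 3 of the 9 genes were called higher than control (27.9% of all genes tested) and 4 lower (26.0%). In Ph24h, 2 rose against control (29.9% of all genes) and 7 fell (33.2%). From 3 h to 24 h, 1 was higher (20.4%) and 6 lower (24.0%). The arrays did not overlap with control for the same numbers of genes, 3 above (35.2% of all genes) and 4 below (30.5%) at 3 h and 2 above (34.8%) and 7 below (36.5%) at 24 h. Set against these shares, 3, 2 and 1 of 9 higher and the 4 of 9 lower at 3 h lay near the background. The 7 of 9 lower at 24 h and 6 of 9 lower from 3 h to 24 h lay above it, which was not tested. These shares depend on the scaling: with scaling to the array median, 12261 of all 24102 genes were lower at 24 h. The median log2 fold change of the 9 genes was -0.20 at 3 h and -0.53 at 24 h, beside 0.07 and 0.01 over all genes, and their median absolute change was 0.50 and 0.69, beside 0.50 and 0.60.

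**Figure D1:**
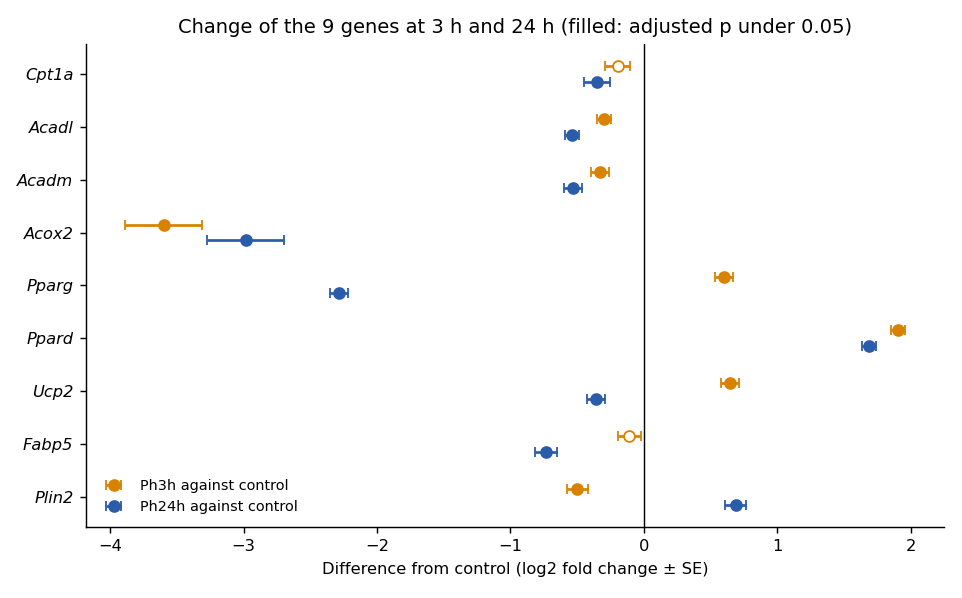
Difference from control of each of the 9 genes at 3 h (orange) and 24 h (blue), as log2 fold change with its limma standard error (3 arrays per group). Filled points passed the adjusted p threshold and open points, Cpt1a and Fabp5 at 3 h, did not. Ppard lies to the right of 0 at both times, Acox2 to the left at both, and Pparg, Ucp2 and Plin2 change sides.

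The 2 receptors diverged. Ppard, a PPAR that is active in most tissues, stood at 2.22, 2.24 and 2.22 on the control arrays, at 4.08, 4.17 and 4.15 on the Ph3h arrays and at 3.92, 3.96 and 3.86 on the Ph24h arrays. All fed arrays lay above all control arrays, by far more than the spread within a group. Ppard rose by 1.91 ± 0.05 (SE; 3.75-fold, adjusted p = 3.1e-07) at 3 h and by 1.69 ± 0.05 (3.23-fold) at 24 h, and it stayed higher under each of the scalings tried, at 0.95 and 0.76 with scaling to the spike-ins. The small decline from 3 h to 24 h (-0.22, adjusted p = 0.013) was not called with quantile normalization (-0.08, adjusted p = 0.21).

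Pparg, the receptor best known from fat cells and from alternatively activated macrophages, stood at 2.65, 2.52 and 2.49 in control, at 3.18, 3.08 and 3.19 in Ph3h and at 0.34, 0.23 and 0.23 in Ph24h. The 3 groups did not overlap. Pparg rose by 0.60 ± 0.07 (1.51-fold, adjusted p = 0.00024) at 3 h, a direction that turned to -0.36 (adjusted p = 0.016) with scaling to the spike-ins. At 24 h it fell by 2.28 ± 0.07 on the log2 scale (4.87-fold lower, adjusted p = 2.9e-07), under every scaling. Between the fed groups the difference was -2.88 ± 0.07, or 7.38-fold. The Pparg probe is printed 10 times on each array, and the SD over the spots of one array was 0.0662 to 0.107, about that between arrays of a group (0.06 to 0.09).

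**Figure D2:**
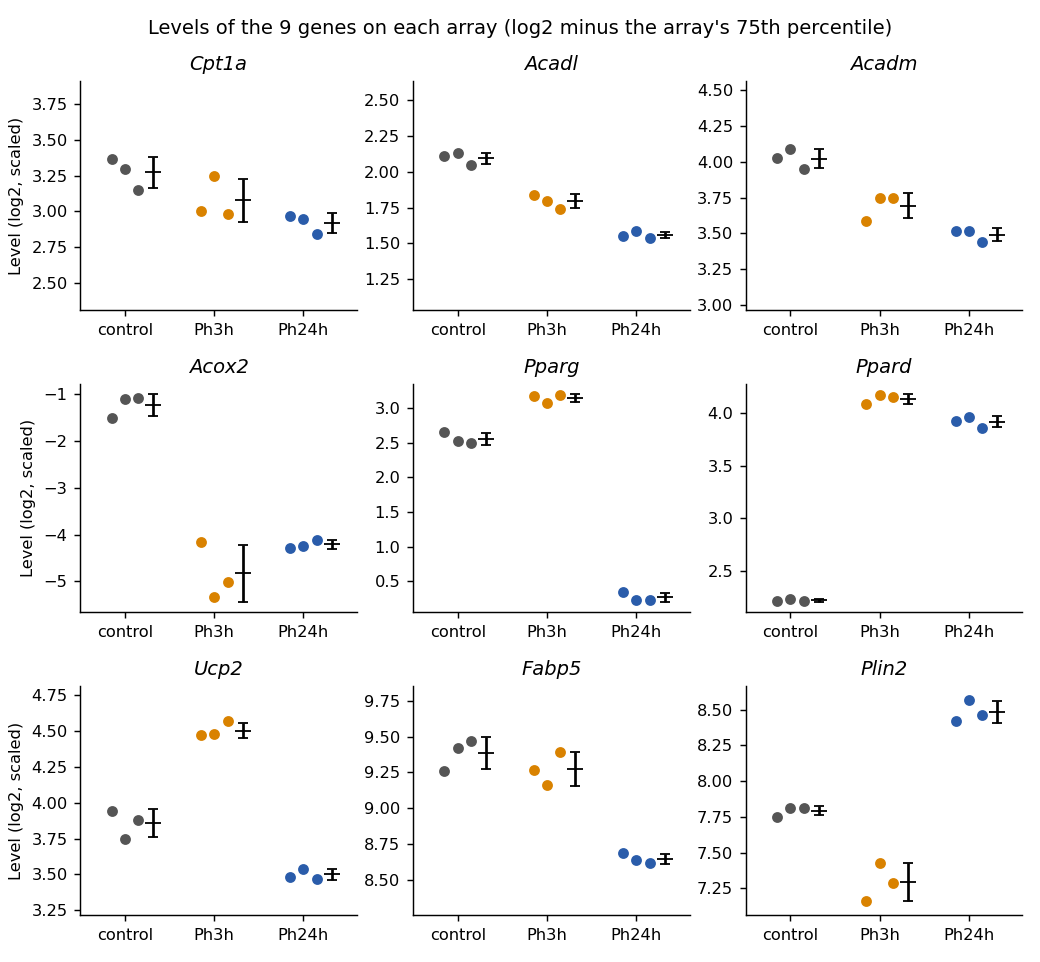
Level of each of the 9 genes on each of the 9 arrays (colored points, replicates 1 to 3 from left to right) with the mean and SD of the 3 arrays in black. The axes differ in range between genes and do not start at 0. Pparg drops from about 3.15 in Ph3h to about 0.27 in Ph24h, while Ppard stays near 4 in both.

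The 3 genes of mitochondrial oxidation declined together and by little. Acadl stood at 2.11, 2.13 and 2.05 in control, 1.84, 1.80 and 1.74 in Ph3h, and 1.55, 1.59 and 1.54 in Ph24h. Acadm stood at 4.03, 4.09 and 3.95, then 3.59, 3.75 and 3.75, then 3.52, 3.52 and 3.44. In both genes the arrays of the 3 groups did not overlap on this scale. Acadl fell by 0.30 ± 0.05 at 3 h (adjusted p = 0.0023) and by 0.53 ± 0.05 at 24 h (1.45-fold, adjusted p = 8.7e-05). Acadm fell by 0.33 ± 0.07 (adjusted p = 0.0048) and by 0.53 ± 0.07 (1.44-fold, adjusted p = 0.00033). The step from 3 h to 24 h depended on the scaling in both. For Acadm it was -0.20 (adjusted p = 0.043), -0.04 with quantile normalization (adjusted p = 0.67) and with the authors' table, and -0.08 with normexp, a background correction followed by quantile normalization, and it was called in 5 of 23 alternatives. When any 1 array other than Ph3h replicate 1 was left out it was not called (highest adjusted p = 0.12). For Acadl it was -0.24 (adjusted p = 0.0084) and -0.09 with normexp (adjusted p = 0.19).

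Cpt1a, the enzyme of the rate-controlling step of entry into mitochondria, stood at 3.37, 3.30 and 3.15 in control, 3.00, 3.25 and 2.98 in Ph3h and 2.97, 2.95 and 2.84 in Ph24h. Ph3h replicate 2 lay within the control range and the other Ph3h arrays below it. The difference at 3 h was -0.20 ± 0.10 (adjusted p = 0.12), and without Ph3h replicate 2 it was -0.28 (adjusted p = 0.031). At 24 h Cpt1a fell by 0.35 ± 0.10 (1.28-fold, adjusted p = 0.014). A second, dimmer Cpt1a probe gave -0.15 at 3 h (adjusted p = 0.071) and -0.21 at 24 h (adjusted p = 0.020) with adjustment over probes. All 3 genes kept their direction at both times under every scaling tried, with log2 fold changes at 24 h of -1.28 (Cpt1a), -1.47 (Acadl) and -1.46 (Acadm) when scaled to the spike-ins.

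Acox2, the peroxisomal oxidase of branched chains and bile acid precursors, was lower in both fed groups. Its unscaled intensity was 167, 191 and 168 in control, 12, 5 and 6 in Ph3h and 8, 8 and 9 in Ph24h. It was well above background on all 3 control arrays, on 1 of 3 Ph3h arrays and on none of the Ph24h arrays. The fitted difference at 3 h was -3.60 ± 0.29 (adjusted p = 4.2e-05), which shrank to -1.34 with normexp but was still called. At 24 h, where the probe was not well above background, Acox2 was at least 6.38-fold lower than control (adjusted p = 7.8e-05). That bound sets the control mean against the lowest signal still well above background on each Ph24h array, or the probe's own signal where that was higher. The bound depends on the processing: with normexp the log2 fold change of Acox2 at 24 h was -1.28, a smaller fall than the bound, but still called. No fold is given between the fed groups, where the fitted difference was 0.62 (adjusted p = 0.12).

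Ucp2, a mitochondrial carrier of the uncoupling protein family that is expressed in macrophages, followed Pparg in direction. It stood at 3.94, 3.75 and 3.88 in control, 4.47, 4.48 and 4.57 in Ph3h and 3.48, 3.54 and 3.47 in Ph24h, with no overlap among the 3 groups. Ucp2 rose by 0.65 ± 0.07 at 3 h (1.57-fold, adjusted p = 0.00014), a direction that turned to -0.31 (adjusted p = 0.028) with scaling to the spike-ins. It fell by 0.36 ± 0.07 at 24 h (1.28-fold, adjusted p = 0.0024), and the drop from 3 h to 24 h was 2.01-fold (adjusted p = 2.0e-05).

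Plin2, the coat protein of lipid droplets in most cells, took the opposite course. It stood at 7.75, 7.81 and 7.81 in control, 7.16, 7.43 and 7.29 in Ph3h and 8.42, 8.57 and 8.46 in Ph24h. The Ph3h arrays were the lowest and the Ph24h arrays the highest, with no overlap. Plin2 fell by 0.50 ± 0.08 at 3 h (adjusted p = 0.0013). At 24 h it rose by 0.69 ± 0.08 (1.61-fold, adjusted p = 0.00019), which was 0.18 (adjusted p = 0.14) with scaling to the array median and turned to -0.24 (adjusted p = 0.051) with scaling to the spike-ins. The rise from 3 h to 24 h (1.19 ± 0.08, 2.28-fold, adjusted p = 2.1e-05) held under every scaling, at 0.92 to 1.22.

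Fabp5, an intracellular fatty acid carrier that can deliver ligands to PPARs, had a bright probe, with unscaled intensities of 252401 to 289292 in control, none of them saturated. It stood at 9.26, 9.42 and 9.47 in control, 9.27, 9.16 and 9.39 in Ph3h and 8.69, 8.64 and 8.62 in Ph24h. Control and Ph3h overlapped, and Ph24h lay below both. The difference at 3 h was -0.11 ± 0.08 (adjusted p = 0.31) but -0.64 with quantile normalization (adjusted p = 0.00032). At 24 h Fabp5 fell by 0.74 ± 0.08 (1.67-fold, adjusted p = 0.00018), and by 1.24 with quantile normalization.

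**Figure D3:**
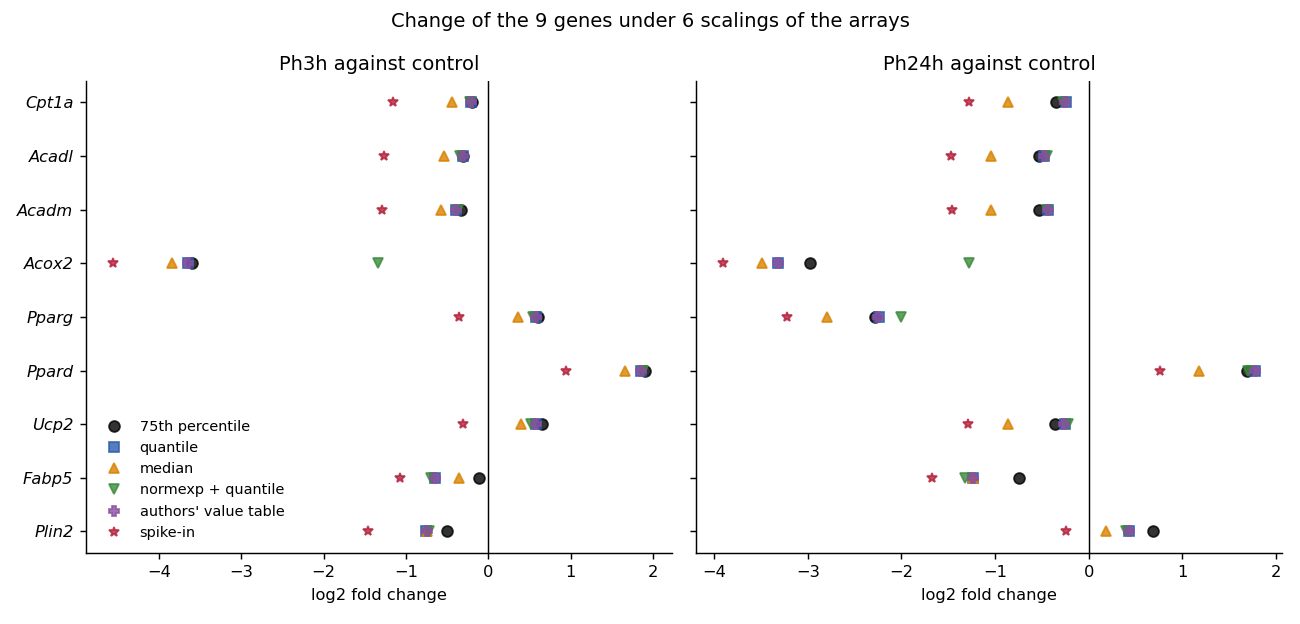
Log2 fold change of each of the 9 genes at 3 h (left) and 24 h (right) under 6 ways to scale the arrays, 1 symbol per way. Spike-in scaling (stars) lies left of the 75th percentile (black circles), since it shifts the median of all genes by -0.96 at 3 h and -0.93 at 24 h, and moves Pparg and Ucp2 at 3 h and Plin2 at 24 h across 0, whereas Ppard stays to the right and Acox2, Acadl, Acadm, Cpt1a and Fabp5 stay to the left at both times.

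In a regression on time over the 3 groups, the approach of the study's methods, all 9 genes passed the F test at an adjusted p under 0.05, as did 67.4% of all genes. R2 was over 0.7 in 9 of the 9 genes (65.6% of all genes) and over 0.9 in 8 (41.5%), with Cpt1a the exception at 0.70.

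The genes whose pattern over the 9 arrays was most like each of the 9 were found by the root mean square (RMS) difference of their centered log2 levels, as a description with no test. Nearest to Pparg was Lpl, the lipoprotein lipase that releases fatty acids from circulating triglycerides, at an RMS difference of 0.099. Lpl changed by 0.50 at 3 h and -2.47 at 24 h, and a second Lpl probe by 0.30 and -2.59. Nearest to Plin2 was Fam114a1 (0.074), to Ucp2 Lcp1, which encodes the actin-bundling L-plastin of leukocytes (0.056), and to Fabp5 the DNA exonuclease Trex1 (0.066). Nearest to Acadl was the kinesin light chain Klc4 (0.032) and to Acadm the mitochondrial RNA polymerase Polrmt (0.027). Acox2 had no near neighbor, the nearest being Matn2 at 0.333. For Cpt1a (0.033) and Ppard (0.050) the nearest probes carried only an array design name. Among the 9 genes themselves, Acadl and Acadm were the closest pair (0.068), followed by Cpt1a with Acadm (0.107).

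Because Cpt1a, Acadl and Acadm declined together while Pparg and Ppard diverged and Plin2 took its own course, the 250 bases before a transcription start of these 6 genes are shown for comparison. They are from RefSeq on GRCm38.p6, where 8 of the 9 genes, all but Fabp5, matched 11 starts in all. Each is written 5′ to 3′ on the strand of its gene, and capitals mark AGGTCA, the core hexamer bound by PPARs and other nuclear receptors, and the GC box GGGCGG, each on either strand.
Cpt1a, chr19:3323051-3323300 (+): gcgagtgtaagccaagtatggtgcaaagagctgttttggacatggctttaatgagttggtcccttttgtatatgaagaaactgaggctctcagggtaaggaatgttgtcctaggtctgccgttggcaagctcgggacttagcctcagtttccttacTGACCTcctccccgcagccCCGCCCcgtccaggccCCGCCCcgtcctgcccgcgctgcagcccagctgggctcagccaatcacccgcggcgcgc
Acadl, chr1:66863310-66863559 (-): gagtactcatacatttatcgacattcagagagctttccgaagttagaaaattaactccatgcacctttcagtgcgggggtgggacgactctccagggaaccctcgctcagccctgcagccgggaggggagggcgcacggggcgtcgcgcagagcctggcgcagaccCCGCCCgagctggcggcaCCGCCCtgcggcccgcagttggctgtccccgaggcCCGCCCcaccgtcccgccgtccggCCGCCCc
Acadm, chr3:153944644-153944893 (-): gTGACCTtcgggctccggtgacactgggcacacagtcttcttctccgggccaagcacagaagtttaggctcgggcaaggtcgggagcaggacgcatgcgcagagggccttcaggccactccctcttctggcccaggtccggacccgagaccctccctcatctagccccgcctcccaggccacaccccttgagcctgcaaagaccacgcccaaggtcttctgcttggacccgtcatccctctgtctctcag
Pparg, first of 3 starts, chr6:115360894-115361143 (+): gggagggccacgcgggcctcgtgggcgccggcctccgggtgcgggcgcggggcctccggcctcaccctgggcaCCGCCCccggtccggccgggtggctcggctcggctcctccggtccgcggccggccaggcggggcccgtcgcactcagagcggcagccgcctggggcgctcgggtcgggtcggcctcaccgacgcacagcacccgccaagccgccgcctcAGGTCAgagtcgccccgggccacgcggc
Ppard, chr17:28232504-28232753 (+): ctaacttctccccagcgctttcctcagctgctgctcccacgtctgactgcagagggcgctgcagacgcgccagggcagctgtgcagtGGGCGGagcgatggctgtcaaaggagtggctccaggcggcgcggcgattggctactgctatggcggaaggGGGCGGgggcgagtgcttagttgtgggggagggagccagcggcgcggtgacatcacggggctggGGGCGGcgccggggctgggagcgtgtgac
Plin2, chr4:86670060-86670309 (-): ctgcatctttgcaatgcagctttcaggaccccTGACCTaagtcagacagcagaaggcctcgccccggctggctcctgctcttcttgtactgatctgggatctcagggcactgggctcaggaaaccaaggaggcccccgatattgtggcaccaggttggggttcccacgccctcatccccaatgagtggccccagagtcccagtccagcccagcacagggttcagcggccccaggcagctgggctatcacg

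Cpt1a, Acadm, Pparg and Plin2 each held 1 hexamer in the window shown, in capitals as AGGTCA or TGACCT, and Acadl and Ppard held none. Of the 11 starts of the 8 matched genes, 5 held a hexamer, beside 14% of 32851 promoter windows of the same length. Counted by gene, 4 of 8 held a hexamer and 5 of 8 a GC box. The starts are not independent, since Pparg and Acox2 have more than 1 each and the windows of Acox2 overlap. The GC box, in capitals as GGGCGG or CCGCCC, was found 2 times in Cpt1a, 4 times in Acadl, once in Pparg and 3 times in Ppard, and at 6 of the 11 starts, beside 32.7% of all windows. No capitals mark 2 motifs at once. A direct repeat of AGGNCA with 1 base between the copies, the form bound by PPARs with retinoid X receptors, was found at 0 of the 11 starts and in 0.338% of all windows. Of the genes that declined together, Acadm held no GC box and Acadl no hexamer in these windows. These are letter matches only.

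The array probes themselves lie elsewhere, at positions the scanner files give on mm9: Cpt1a at chr19:3385374-3385433, Acadl at chr1:66877673-66877732, Acadm at chr3:153585670-153585729, Acox2 at chr14:9058141-9058200, Pparg at chr6:115440213-115440272, Ppard at chr17:28438298-28438357, Ucp2 at chr7:107647809-107647868, Fabp5 at chr3:10016185-10016244 and Plin2 at chr4:86302847-86302906. The exon or other feature at these positions was not determined, since no annotation of that build was used here.

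Genes of the same pathways were counted from lists of related genes, which between them include the genes described above. Cpt1a, Acadl and Acadm are in the mitochondrial list, Acox2 in the peroxisomal list, and Pparg and Ppard in that of PPAR receptors. Fabp5, Ucp2 and Plin2 are in those of fatty acid-binding proteins, uncoupling proteins and lipid droplets. The counts of these lists are therefore not independent of the results for these genes. Of 22 mitochondrial fatty acid oxidation genes, 10 were called lower at 3 h and 2 higher, and by 24 h 18 were lower and 1 was higher. Over all genes tested, 26.0% were lower and 27.9% higher at 3 h, and 33.2% and 29.9% at 24 h, the shares to set beside this and the counts that follow. Their median log2 fold change was -0.20 and -0.55, and it stayed below 0 under every scaling. The 2 that rose at 3 h, Acadsb (0.22) and Etfb (0.19), were at -0.03 and -0.05 with scaling to the array median. Cpt2, the inner membrane partner of Cpt1a, fell by 0.98 at 3 h (adjusted p = 4.0e-05), and a second Cpt2 probe by 0.57. Mlycd, which removes the malonyl-CoA that inhibits Cpt1a, fell by 0.82 and 0.94. Decr1, an auxiliary enzyme for unsaturated chains, fell by 0.95 at 24 h. The muscle form Cpt1b rose by 0.95 at 24 h, on a dim probe (adjusted p = 0.0074) that was not called with quantile normalization (0.55, adjusted p = 0.056), and a second Cpt1b probe went the other way (-0.87, adjusted p = 0.10). Of 17 measured peroxisomal genes, 10 were lower and 3 were higher in Ph3h, and 15 and 1 in Ph24h, with medians of -0.29 and -0.62 that stayed below 0 under every scaling. The thiolase Acaa1b rose by 0.60 and 0.53, but lay below 0 with scaling to the spike-ins. Abcd2, a peroxisomal importer of very long chains, was at least 2.75-fold lower at 3 h (log2 fold change of -0.62 with normexp). The reductase Pecr fell by 1.69 at 24 h on 1 probe and changed by -0.09 on another (adjusted p = 0.82).

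**Figure D4:**
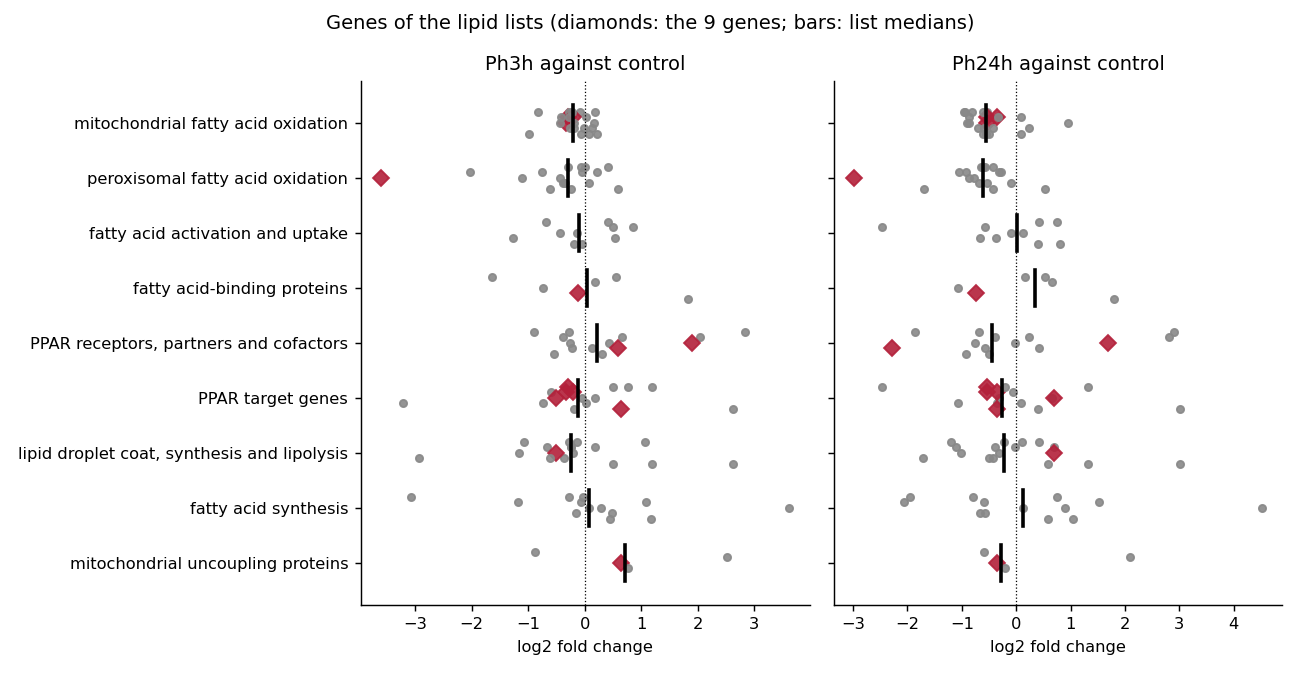
Log2 fold change against control of each measured gene of 9 lists of related genes, at 3 h (left) and 24 h (right). Diamonds are the 9 genes described here, circles the other genes of each list and black bars the list medians, which for mitochondrial oxidation move from -0.20 to -0.55 and for peroxisomal oxidation from -0.29 to -0.62.

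Of 14 PPAR receptors, partners and cofactors, 6 rose and 4 fell in Ph3h, and 5 rose and 8 fell in Ph24h. Ppara, the PPAR of liver and of oxidative tissues, rose by 2.04 at 3 h and 2.80 at 24 h. A second Ppara probe, not well above background on any control array, was at least 30.4-fold and 38.9-fold higher, moving with the SH-SY5Y markers, whose part in this was not tested. The coactivator Med1 rose by 2.84 and 2.90 on its brightest probe, but its 4 probes disagreed, with 1 other higher (1.36 and 1.08) and 2 lower (-0.43 and -0.42 at 3 h). Ppargc1b, a coactivator of mitochondrial genes, fell by 0.89 and 1.86 (-0.82 at 24 h with normexp), and the partner Rxra fell by 0.38 at 3 h on 1 probe and changed by 0.02 on another.

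Of 16 measured PPAR target genes, 5 rose and 6 fell in Ph3h, and 5 rose and 8 fell in Ph24h, with the rises near the share of all genes at both times. Hilpda, a lipid droplet protein that inhibits triglyceride lipase, rose by 2.62 at 3 h and 3.02 at 24 h, and by the same 2.62 and by 3.00 on a second probe. Angptl4, a secreted inhibitor of lipoprotein lipase, fell by 3.21 at 3 h. Fabp4, the fatty acid carrier of fat cells and macrophages, fell by 0.74 and 1.07. Cidec, another droplet protein, was at least 1.73-fold and 1.90-fold higher, a call that was lost with quantile normalization (adjusted p = 0.11 and 0.15). The target list moved both ways, and 5 of the 9 genes are in it: Cpt1a, Acadl, Acadm, Ucp2 and Plin2.

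Of 17 measured genes of lipid droplets and lipolysis, 3 rose and 7 fell in Ph3h, and 5 rose and 5 fell in Ph24h. Beside Plin2 and Hilpda, Fitm2, which helps droplets to form, fell by 1.15 at 3 h, and the monoglyceride lipase Mgll fell by 1.10 at 24 h. G0s2, an inhibitor of triglyceride lipase, was called lower at both times, at -2.94 ± 0.58 (SE; -1.34 with normexp) and -1.71 ± 0.58 (-0.92 with normexp), and its Ph24h arrays had an SD of 1.22. Of 10 measured genes of fatty acid activation and uptake, 4 rose and 4 fell at each time. Acsl1, which activates long chains, changed as Plin2 did, by -0.69 at 3 h and 0.75 at 24 h, and the second was not called with scaling to the array median (0.24, adjusted p = 0.076). Slc27a3 fell by 1.26 (-0.57 with normexp) and 0.67, Acsl3 and Acsl5 rose by 0.85 and 0.54 at 3 h, and Slc27a4 rose by 0.81 at 24 h. Of 6 measured fatty acid-binding proteins, 2 rose and 2 fell in Ph3h, and 3 rose and 2 fell in Ph24h. The rises at 24 h include Fabp6, whose probe was not well above background on any control or Ph24h array. That call was lost with quantile normalization (adjusted p = 0.097). Fabp7, the carrier of neural progenitors and glia, fell by 1.63 at 3 h, and Fabp3, the carrier of heart and muscle, rose by 0.66 at 24 h. Fabp2 rose by 0.55 at 3 h, a call that was lost with the array median (0.31, adjusted p = 0.11), and Fabp6, not well above background in control, was at least 2.01-fold higher at 3 h, a call that was lost with quantile normalization (adjusted p = 0.054).

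Of 13 genes of fatty acid synthesis, 5 rose and 2 fell in Ph3h, and 5 rose and 6 fell in Ph24h. Elovl6, which elongates palmitate, was called lower at both times. Its fitted differences were -3.07 at 3 h, where it was well above background on 1 of 3 arrays, and -1.95 at 24 h, or -1.27 and -1.09 with normexp, while Elovl5, which elongates polyunsaturated chains, rose by 1.17 at 3 h. The desaturase Fads2, not well above background in control, was at least 6.94-fold and 12.9-fold higher. Its log2 fold changes with normexp were smaller than these bounds, at 0.82 and 1.16. A second Fads2 probe, well above background on 1 Ph24h array only, was at least 2.45-fold higher at 24 h. The desaturase Scd2 rose by 1.52 at 24 h. Acacb, the carboxylase that makes the malonyl-CoA which inhibits Cpt1a, was at least 1.82-fold lower at 24 h (log2 fold change of -0.54 with normexp). Of 4 measured uncoupling proteins, 3 rose and 1 fell in Ph3h, and 1 rose and 2 fell in Ph24h. Ucp1, not well above background in control, was at least 2.94-fold higher at 3 h and 2.17-fold at 24 h. With normexp its log2 fold changes were 0.32 and 0.19, the second not called (adjusted p = 0.062). Ucp3 rose by 0.77 at 3 h as Ucp2 did, and Slc25a14 fell by 0.89 and 0.60. With scaling to the spike-ins the rises of Acsl1, Acsl3, Acsl5, Slc27a4, Fabp3 and Ucp3 turned to falls or to differences below 0, those of Ppara, Med1, Hilpda, Scd2 and Fads2 did not, and that of Elovl5 was no longer called.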

How the data were processed

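The scanner files that the authors deposited come from Agilent Feature Extraction 10.7.3.1, and their processed signal is a background-subtracted intensity on a linear scale that is not normalized between arrays. A series table deposited beside them holds log2 values, of which 36625 of 36655 probes were matched here. The mean of each probe in it is 0, and the array medians ranged from -0.0712 to 0.0978. Its differences ran the same way as those of the scanner intensities (slopes 0.956 and 0.943), while how its arrays were scaled is not given in the sources. It served as an alternative.

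From the intensities, flagged outlier spots were left out, log2 was taken of each spot, and the log2 values of a probe's spots were averaged. Each array's 75th percentile over non-control probes was then subtracted. Probes with 1 or more of 9 arrays well above background were kept, 1 probe per gene name was taken (highest mean), and group means of all 9 arrays were compared with limma 3.58.1 (R 4.3.3; lmFit and eBayes, two-sided), with Benjamini-Hochberg adjustment over 24102 genes. The fit was tested on simulated data. The number of arrays, 3 per group, limits the precision. The replicate numbers did not pair the samples: deviations of same-numbered arrays correlated at -0.057 to 0.041. Slide 1 held replicates 1 and 2 and slide 2 replicate 3 of each group.

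The 9 genes and the lists of related genes were chosen with earlier results of these data known. All 9 genes are described with every probe. Of each list the text names, at each time, up to 2 called genes with the largest rises and falls whose arrays do not overlap with control, and for each of the 9 genes the nearest gene by RMS difference. A second probe of a named gene is given where it goes the other way at the time named or bears on the value. A gene that this rule names is not reported here.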

Additional observations from a re-analysis of the deposited data

Results flagged for a closer look

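The effects at 3 h and at 24 h, measured against the same control arrays, differed from each other in 7 of the 9 genes by limma's test of Ph24h against Ph3h. By the same test, 20.4% of all genes were called higher and 24.0% lower, so such differences were common on these arrays. The difference, as log2 change at 24 h minus that at 3 h, was -2.88 for Pparg (adjusted p = 6.5e-07), 1.19 for Plin2 (adjusted p = 2.1e-05), -1.0 for Ucp2 (adjusted p = 2.0e-05) and -0.63 for Fabp5 (adjusted p = 0.00068). It was smaller for Acadl, at -0.24 (adjusted p = 0.0084), for Ppard, at -0.22 (adjusted p = 0.013), and for Acadm, at -0.20 (adjusted p = 0.043). Groups of 3 arrays are too small for a search for outlying arrays.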

How the results depend on the processing

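Several results depended on how the arrays were scaled. Against the 75th percentile, scaling to the array median shifted the median of all genes by -0.24 at 3 h and -0.51 at 24 h, quantile normalization by -0.14 and -0.14, and scaling to 7 spike-in probes, an alternative chosen after seeing the data, by -0.96 and -0.93. Testing all 34623 genes without the filter on dim probes, which is a change of the gene set, moved it by 0.28 and 0.46. The share of higher genes among all calls was 51.8% at 3 h and 47.4% at 24 h, but 33.7% and 23.9% with the median, 66.9% and 65.0% without a filter and 8.8% and 12.9% with the spike-ins. Between Ph24h and Ph3h it was 46.0%, 22.6% with the median and 48.8% with the spike-ins. Whether equal amounts of spike-in reached every sample was not tested.

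With scaling to the spike-ins, 1 of the 9 genes was called higher and 8 lower at 3 h, 1 was higher at 24 h and 3 were lower from 3 h to 24 h, and the changes of Pparg (-0.36) and Ucp2 (-0.31) at 3 h and of Plin2 (-0.24) at 24 h turned. Of all 24102 genes, this scaling called 1494 higher and 15470 lower at 3 h. It called 2204 higher at 24 h and 4749 lower from 3 h to 24 h. With the array median, 1 of the 9 genes was higher at 24 h, beside 3842 of all 24102. Slide 1 alone left 3 genes lower from 3 h to 24 h. Of the genes that passed the regression on time, 2, Plin2 and Acox2, lay higher at 24 h than at 3 h at either R2 limit. That is by sign alone, since the F test covers all 3 groups and does not test this step, for which Acox2 was not called by limma (adjusted p = 0.12). Leaving out each array in turn gave 3 higher and 4 to 5 lower at 3 h, 2 and 7 at 24 h, 1 to 2 higher and 5 to 6 lower from 3 h to 24 h, and 8 to 9 genes in the regression. With the replicate block, 5 genes were lower from 3 h to 24 h, as Acadm was not called (-0.20, adjusted p = 0.066), and no other call changed. The cause of these changes was not tested.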
